A study of Mus musculus with 9 samples.

Results

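The old B1 short interspersed elements (SINEs) of the mouse genome were followed in embryonic stem cells (ESCs) that lack telomerase RNA. They were taken as the copies whose repeat family was given as Alu and whose repeat name began with B1_Mur, B1F or PB1. The rule used names only and no measured value. It found 92063 copies of 623916 in the count table (14.8%), under 12 repeat names: B1_Mur1 to B1_Mur4, B1F, B1F1, B1F2, PB1, PB1D7, PB1D9, PB1D10 and PB1D11. RNA was sequenced from G4 Terc-/- ESCs (n = 3 libraries), G1 Terc-/- ESCs (n = 3) and wild-type (WT) ESCs (n = 3), all on a C57BL/6 background. The G4 cells were derived from blastocysts of third-generation Terc-/- mice, the G1 cells from intercrosses of Terc+/- mice, and both lack both copies of Terc, the gene for the RNA template of telomerase. The labels do not say whether a group is 1 line or several, nor whether its libraries are separate cultures, and the number of biological replicates stated with the study's methods differs from theirs. Line and generation therefore cannot be told apart, and p-values measure the spread between these libraries.

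B1 elements descend from the gene of 7SL RNA, the RNA of the signal recognition particle, as do the Alu elements of primates. They carry an internal RNA polymerase III promoter made of an A box and a B box, encode no protein and were copied with the help of LINE-1 enzymes. Copies that landed in the introns or untranslated regions (UTRs) of genes are also read as part of the host transcript, so a read over such a copy need not come from a transcript started at the element. The PB1 (proto-B1) and B1F names hold the earliest members, the B1_Mur names a middle layer, and B1_Mus and B1_Mm the youngest copies.

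The stretch around the best B box match is shown for copies on which the results turn: the 3 most abundant copies, the B1F1 copy that fell most in reads, and copies of PB1D7 and PB1D10 in genes named below. Each is read 5′ to 3′ on the strand of the element, with the 9 bases that best fit GTTCNANNC in capitals.
B1F1 in the Tdgf1 3′ UTR, chr9:110939826-110939855 (minus strand): tatgtacagaGTACCAGGCcaacaaagact
PB1D9 in the Tdgf1 3′ UTR, chr9:110940115-110940144 (minus strand): gatctcaagaGTTCAAGGCcagcctggtct
PB1D9 in the Tdgf1 3′ UTR, chr9:110940276-110940305 (minus strand): tatttcttgaGTTCCAGGAcagacaggcct
B1F1 in the Col4a2 3′ UTR, chr8:11448416-11448445 (minus strand): gggttacataGTTCCAGGCtaggcagggat
PB1D10 in the Tcf23 3′ UTR, chr5:30975672-30975701 (minus strand): aggatttcaaGTTCAAAGGcagcctgggct
PB1D7 in an exon of H2-M5, chr17:36984282-36984311 (plus strand): tttgccatgaGTTTGAGGCcagcctgggtt
PB1D10 in the Paics 3′ UTR, chr5:76967045-76967074 (plus strand): gacctcttaaGTTCAGGGCcaccctgagct
Coordinates are those of GRCm38, the build named mm10 in the deposited labels of the copies. Of the 6 fixed letters of the motif, the second Tdgf1 copy and the Col4a2 copy had all 6, and each of the other 5 differed at 1.

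Sequence was at hand for 8249 of the 9215 old B1 copies in exons (89.5%), read from GENCODE M21 transcripts. Of these, 2082 (25.2%) held GTTCNANNC on the strand of the element. The share was 49.5% of the 3328 exonic copies of the young B1 names (B1_Mm, B1_Mus1 and B1_Mus2) with sequence. It was 3.93% of other exonic repeats of 80 to 160 bases, outside the Alu, B2, B4 and ID families, where MIR SINEs were not taken out. Counted on either strand, the shares were 26.0% of old B1, 49.9% of young B1 and 6.23% of those other repeats. Among the old names, B1_Mur1 had the motif most often (45.8% of its copies) and PB1D7 least often (14.1%). The median GC content of the old exonic copies was 48.6%, against 52.8% in the young ones, with 0.730 and 1.55 CpG per 100 bases. The motif stood in 27.6% of the tested exonic old B1 copies that were higher in G4 than in WT ESCs, 25.8% of those lower and 25.2% of those not called. A match says only that these letters are present.

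The old copies were short, with a median of 118 bp against 143 bp for young B1. Median lengths by name lay between 97 bp (PB1D11) and 138 bp (B1_Mur4). The fifth field of each copy's label is not defined in the sources used here. Divided by 10 and read as percent divergence from the consensus, it gave a median of 22.4% for old and 7.3% for young B1, with 15.8% in B1_Mur4 and 27.4% in PB1 as the lowest and highest of the old names. The commonest name was PB1D10 with 14377 copies, and the rarest was PB1 with 2716.

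The 9 libraries held 918879 to 1137257 estimated counts over all repeat copies, with a median of 992072. Old B1 copies took 16.6, 17.4 and 17.1% of the counts in G4, 16.3, 16.0 and 16.2% in G1, and 16.4, 16.9 and 16.5% in WT ESCs. Levels are given below as CPM, counts relative to library size after TMM scaling, which sets libraries to a common scale through the bulk of their features. TMM factors were computed separately for copies, repeat names, context sums and genes. In the first G4 library they were 0.990, 1.09, 1.10 and 1.02 in that order. CPM of different levels are therefore not on 1 scale, and sums over all old or all young B1 names use the factors of names. On that scale old B1 copies summed to 159798 ± 7054 CPM in G4, 167348 ± 2172 in G1 and 171035 ± 3612 in WT ESCs (SD, n = 3 each). The log2 ratio was -0.10 for G4 over WT, and the G4 and WT libraries did not overlap on this scale. With library totals alone in place of TMM the ratio was 0.04 and the libraries overlapped. The direction of the sum and the gap between libraries thus depend on the scaling. Young B1 copies summed to 75152 ± 1742, 76935 ± 972 and 75991 ± 1628 CPM in G4, G1 and WT (SD, n = 3 each), and their libraries overlapped. The tables hold repeats and no genes, so the loss of Terc was not checked here. In bulk RNA, fewer cells of a type and less RNA per cell cannot be told apart.

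Most copies were hardly read. Under 5 counts in all 9 libraries together fell on 62664 of the 92063 copies, and 568 copies held 50.02% of the old B1 counts. The 10 most abundant copies held 9.98%. The filter on low counts left 2174 copies (2.36%), which carried 67.8% of old B1 counts. Values that were not whole numbers, where reads were shared between features, occurred in 1.68% of old B1 copies, but those copies held 19.8% of the old B1 counts.

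In G4 against WT ESCs, 10 of the 12 old B1 names fell, 6 of them also when libraries were scaled by their totals, PB1D9 rose, and B1F1 did not pass the test. Across all 853 repeat names tested, 23.4% were lower and 23.1% higher in G4 (edgeR quasi-likelihood test, Benjamini-Hochberg adjusted p under 0.05 over all names). The median log2 fold change was -0.19 over the 12 old B1 names and 0.00 over all names. Of the 3 young B1 names, B1_Mus1 fell by 0.09 on the log2 scale (adjusted p = 0.00842), while B1_Mm stood at -0.01 (0.814) and B1_Mus2 at 0.06 (0.0726). Other SINEs moved as well: 7 of the 8 B4 and ID names were lower and 0 higher (median -0.15), and 2 of the 5 B2 names were higher and 0 lower (median 0.05). With library totals in place of TMM, 6 of the 12 old names were lower and 2 higher in G4. That scaling moved the median of all names up by 0.14 on the log2 scale and turned the calls over all names to 286 higher and 136 lower, against 197 higher and 200 lower with TMM.

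B1F2 moved furthest down. It had 6273, 6541 and 6366 CPM in G4, 7838, 7714 and 7699 CPM in G1, and 8356, 8545 and 8245 CPM in WT ESCs. The 3 groups did not overlap, with G4 lowest and WT highest. The G4 against WT log2 fold change was -0.39 ± 0.03 (SE; edgeR adjusted p = 3.59e-09). Its most abundant copy, in the 3′ UTR of Clic4, a chloride intracellular channel protein, held 9.74% of B1F2 counts, and without it the change was -0.29.

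PB1 itself had 4269, 4472 and 4449 CPM in G4, 5221, 5119 and 5055 in G1, and 5353, 5451 and 5216 in WT ESCs. All 3 G4 libraries lay below all others. The log2 fold change for G4 against WT was -0.28 ± 0.04 (edgeR adjusted p = 1.81e-06). PB1D11 was close to it at -0.27 ± 0.04 (3.92e-06), and PB1D7 followed at -0.22 ± 0.04 (3.65e-05).

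B1_Mur2 had 13695, 14237 and 13896 CPM in G4, 16548, 16082 and 16441 in G1, and 16578, 16832 and 16282 in WT ESCs. The G4 libraries stood apart below the G1 and WT libraries, which overlapped. Its log2 fold change for G4 against WT was -0.25 ± 0.03 (edgeR adjusted p = 4.59e-07). B1_Mur3 changed by -0.20 ± 0.03 (2.39e-05), B1F by -0.18 ± 0.03 (8.62e-05), B1_Mur4 by -0.14 ± 0.03 (0.000329), PB1D10 by -0.14 ± 0.03 (0.00246) and B1_Mur1 by -0.10 ± 0.03 (0.00663). The last 3 of these, and B1F, lost the call with library totals, with values between -0.05 and 0.03.

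PB1D9 went the other way. It had 22360, 25791 and 24350 CPM in G4, 20450, 19467 and 19679 in G1, and 18388, 19120 and 18530 in WT ESCs. The 3 groups did not overlap, with G4 highest and WT lowest. The log2 fold change for G4 against WT was 0.37 ± 0.04 (edgeR adjusted p = 1.22e-07). Its 10 most abundant copies held 38.6% of its counts and the first of them, in the 3′ UTR of Tdgf1, held 13.3%. Tdgf1 encodes Cripto, the co-receptor of Nodal, which is abundant in ESCs. Without that copy the change was 0.14 (adjusted p = 0.020), without all copies in exons of listed ESC and primitive endoderm markers it was -0.04 (0.296), and over copies with whole values it was -0.01 (0.824).

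B1F1 had 13944, 16731 and 15776 CPM in G4, 13571, 13223 and 13162 in G1, and 14876, 15708 and 15171 in WT ESCs. The G4 and WT libraries overlapped and the G1 libraries lay below both. The G4 against WT log2 fold change was 0.02 ± 0.05 (edgeR adjusted p = 0.724), a value that 1 copy, 1 library and the scaling decide. With library totals it was 0.16 (0.00108) and B1F1 was called higher. A single Tdgf1 copy held 31.0% of B1F1 counts, and without it B1F1 changed by -0.84 (9.67e-14). Without the marker exons the change was -0.38 (3.41e-09), over whole-valued copies it was -1.01 (7.93e-24), and without the first G4 library it was 0.09 (0.0136). The Tdgf1 copies have values that are not whole, so reads shared with other features enter them.

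**Figure D1:**
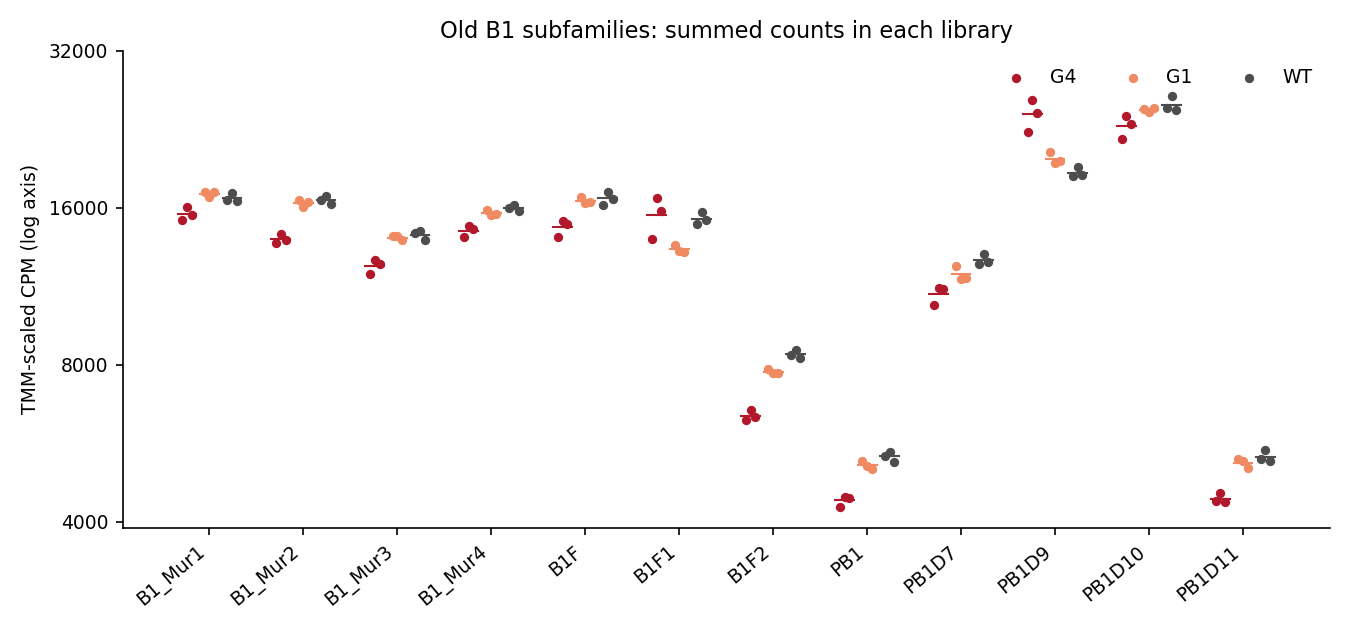
Level of each of the 12 old B1 repeat names in CPM after TMM scaling, 1 point per library (3 G4, 3 G1, 3 WT). PB1D9 is highest in G4, B1F2 and PB1 are lowest in G4, and the G4 and WT points of B1F1 overlap.

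**Figure D2:**
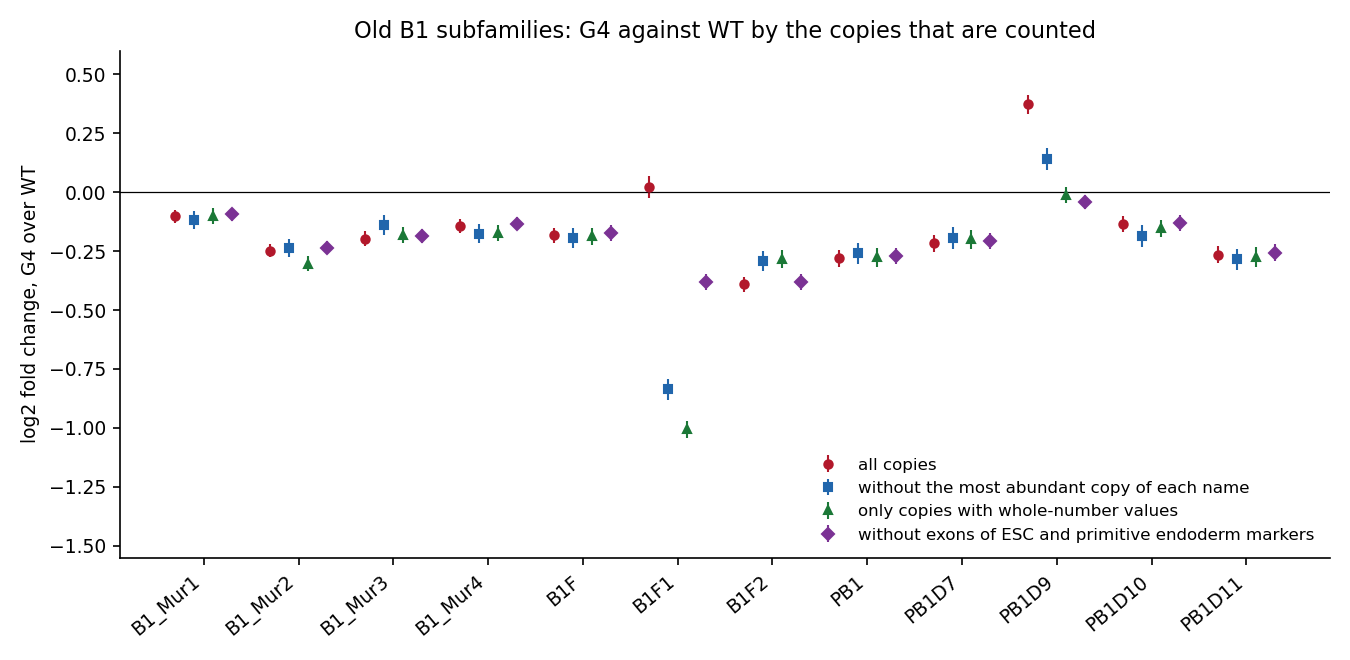
Log2 fold change for G4 over WT of each old B1 name (y axis; bars are SE) from all copies, without the most abundant copy of each name, from whole-valued copies and without the exons of ESC and primitive endoderm markers. B1F1 lies at 0.02 with all copies and between -1.01 and -0.38 in the other sets, and PB1D9 at 0.37 with all copies and between -0.04 and 0.14 in the others.

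In G1 against WT ESCs, B1F1 and B1F2 fell and no old B1 name rose, where 6.33% of all names were lower and 5.51% higher. B1F1 changed by -0.20 ± 0.05 (edgeR adjusted p = 0.00846) and B1F2 by -0.11 ± 0.03 (0.0277). The other 10 names lay between -0.09 and 0.09. These calls rest on single libraries: B1F2 was not called without any 1 of the 3 G1 libraries or without the second WT library, and without that WT library B1F1 stood at -0.18 (0.0536), leaving 0 names called. Without the first G4 or the first WT library, 3 names were called, PB1D7 being the added one. In the direct comparison of G4 with G1 ESCs, 10 names were lower, by 0.10 to 0.28 on the log2 scale, and PB1D9 (0.28 ± 0.04, 7.59e-06) and B1F1 (0.22 ± 0.05, 0.000665) were higher. B1F1 turned to -0.43 without its top copy (3.31e-08), -0.21 without marker exons (1.7e-05) and -0.58 in whole-valued copies (1.1e-15), and PB1D9 stood at 0.14 (0.0304), -0.04 (0.288) and -0.02 (0.727) in the same 3 sets. Of all names, 23.0% were lower and 19.5% higher in that comparison. With library totals, 6 of the 12 were called: B1F2, B1_Mur2, PB1 and PB1D11 lower, and B1F1 and PB1D9 higher.

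The old B1 counts came mainly from gene exons. Exonic copies were 9215 of the 92063 (10%) but held 69.7% of the counts, against 58.6% for young B1 and 47.4% for all repeats. Intronic copies (69442, 75.4%) held 25.8%, copies up to 5 kb from a gene (8903, 9.67%) held 3.69%, and copies further from any gene (4503, 4.89%) held 0.745%. Per megabase of element, exonic copies gave 104532 CPM in G4, 105286 in G1 and 112112 in WT ESCs, while intronic copies gave 4895, 5586 and 5199, and far copies 2550, 2282 and 1975. Within exons the 3′ UTR dominated: its 3640 copies held 63.7% of all old B1 counts, and the most abundant copy of each of the 12 names lay in a 3′ UTR.

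Exonic old B1 copies summed to 101191, 120801 and 116162 CPM in G4, 117348, 112286 and 110960 in G1, and 116995, 126986 and 118692 in WT ESCs. Intronic copies summed to 44292, 38421 and 38022 CPM in G4, 44654, 45303 and 47807 in G1, and 44586, 40781 and 42842 in WT ESCs. The first G4 library stood apart from the other G4 libraries, low in exonic and high in intronic reads. G4 and WT overlapped in both sums, in exons also among the other libraries, while in introns the other 2 G4 libraries lay below all WT libraries. Copies near genes had 5277, 5580 and 5502 CPM in G4, below the 6412, 6424 and 6174 CPM in WT ESCs. Far copies had 1442, 1340 and 1364 CPM in G4, above the 1157, 1008 and 1046 CPM in WT ESCs.

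Each of the 12 names was then summed within each of the 4 gene contexts and tested among all 2171 such sums. In G4 against WT, 8 of the 48 old B1 sums rose and 16 fell, where 21.0% of all sums were higher, 18.0% lower and 39.0% either. With library totals, 16 were called, 11 higher and 5 lower. Among the exonic sums 1 rose and 8 fell (46.4% of all exonic sums were called in either direction), and the old B1 median was -0.27 against -0.05 over all exonic sums. Of the near-gene sums 6 fell and none rose (37.4% of all near-gene sums were called in either direction, 24.6% higher and 12.8% lower). Their median was -0.21 against 0.10. Of the intronic sums 2 fell (29.9% of all intronic sums were called in either direction, 13.1% higher and 16.8% lower). The median there was -0.11 for old B1 and for all names. Without the first G4 library 10 of the 12 intronic sums were lower, so that library decides the count.

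Of the 12 sums of copies far from genes 7 rose and none fell, with a median of 0.44, while over all names 45.1% of far sums were called and the median was 0.42. Single far copies gave another picture over all repeats, with 251 higher and 303 lower of 997 tested and a median of -0.25, and 6 old B1 copies there were tested, 2 of them higher. B1F2 rose by 0.56 on the log2 scale there (edgeR adjusted p = 0.0164), B1_Mur4 by 0.52 (0.000794) and PB1D10 by 0.49 (0.00182). These sums rest on few reads, 28.2 to 229 CPM a name in G4. Without the first G4 library 4 of them were higher and without the first WT library 3. When far copies were scaled by themselves, B1F (-0.42) and B1F1 (-0.68) were called lower and no name higher.

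B1F2 had an exonic change of -0.54 ± 0.07 (5.63e-08) beside the far change of 0.56 ± 0.19. Its far sum had 94.67, 66.67 and 70.55 CPM in G4 and 52.19, 51.62 and 53.22 in WT ESCs. The median far sum over all names stood at 0.42. Scaled by far copies alone, B1F2 was at 0.18 (edgeR adjusted p = 0.527). Exonic PB1D9 rose by 0.50 ± 0.07 (6.52e-07), and by 0.18 without its top copy (0.0498). Exonic B1F1 stood at 0.04 (0.709), and at -1.10 without its top copy (1.86e-17). B1F1 copies near genes fell by 0.78 ± 0.09 on the log2 scale (1.32e-08).

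In G1 against WT ESCs, 2 of the 48 old B1 sums were lower and 0 higher, where 3.92% of all sums were lower, 2.53% higher and 6.45% either (edgeR). Both were exonic, B1F1 at -0.28 ± 0.07 (0.0142) and B1F2, among the 9.46% of all exonic sums called. Neither was called without the third G1 or the second WT library, 1 was without the second G1 library, 3 without the first G1 library and 4 without the first G4 library. Introns, near-gene and far copies gave 0 old B1 calls, against 4.27, 4.92 and 7.22% of all sums there. At an unadjusted p under 0.05, 4 of the 48 were higher and 4 lower, and DESeq2 called 2 exonic sums lower and no other. In G4 against G1 ESCs, 4 sums were higher and 17 lower, where 17.5% of all were higher, 14.8% lower and 32.3% either. By context, 2 exonic sums were higher and 4 lower (37.5% of all exonic sums were called in either direction). In introns 4 sums were lower (24.2% of all were called in either direction, 12.1% higher and 12.1% lower). Near genes 9 sums were lower (34.2% of all were called in either direction, 17.0% higher and 17.2% lower). Far from genes 2 sums were higher (36.1% of all were called in either direction, 25.8% higher and 10.3% lower). With library totals 0 intronic and 2 near-gene sums were lower, and without the first G4 library all 12 intronic sums were.

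**Figure D3:**
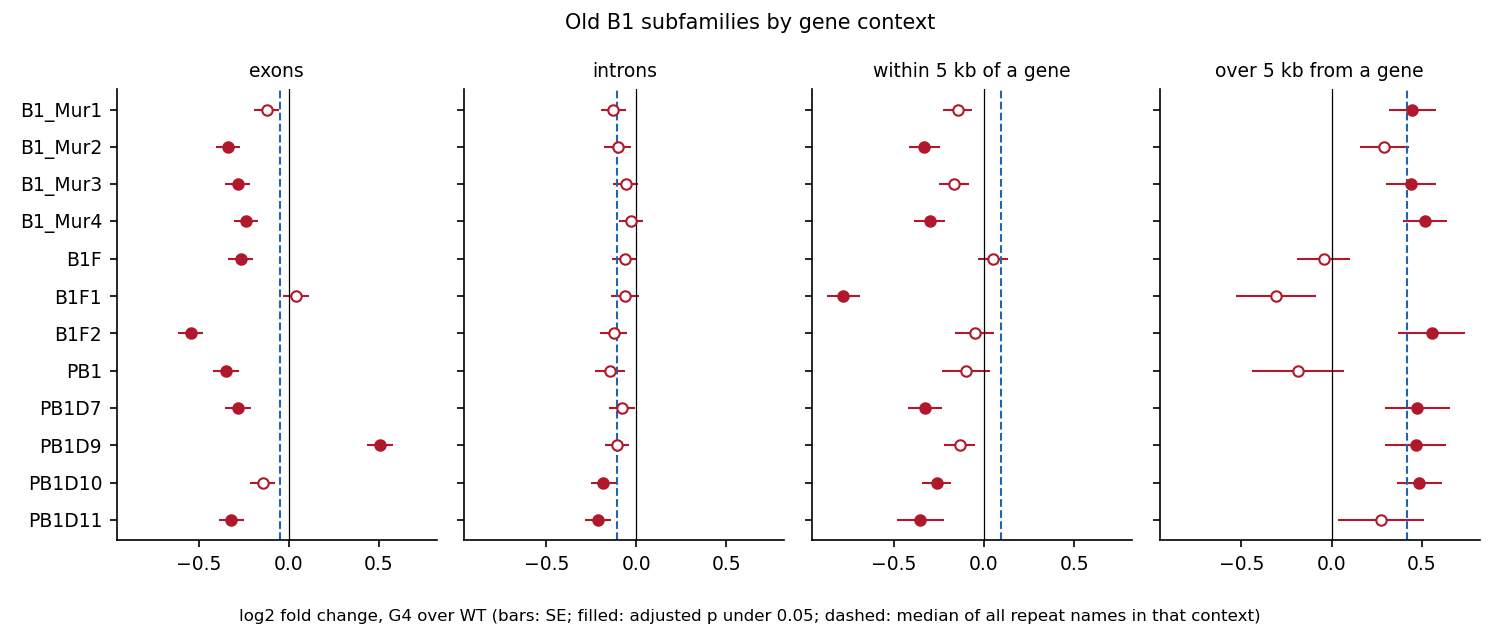
Log2 fold change for G4 over WT (x axis; bars are SE, filled points passed the test) of each old B1 name in exons, in introns, up to 5 kb from a gene and farther away, with a dashed line at the median of all repeat names. Exonic and near-gene sums lie mostly below 0, with exonic PB1D9 at 0.50, and far sums mostly above 0, around the dashed line.

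At the level of single copies, 337 of the 2174 tested were higher (15.5%) and 489 lower (22.5%) in G4 than in WT ESCs, where 21.3% of all 13278 tested copies were higher, 21.3% lower and 42.6% either. Changes past 2-fold were 224 higher and 300 lower, together 24.1% of the tested old B1 copies against 30.6% of all. The G4 and WT libraries did not overlap in 1084 copies (49.9%), against 52.1% of all. The quartiles of the old B1 copies lay at -0.66 and 0.43 on the log2 scale, with a median of -0.09 against -0.02 over all copies. In G1 against WT, 30 were higher (1.38%) and 89 lower (4.09%), beside 2.41% higher, 4.36% lower and 6.77% in either direction over all copies. Of the old B1 copies 42 changed past 2-fold, against 3.23% of all copies tested. In G4 against G1, 302 were higher and 383 lower, beside 19.0% higher, 19.2% lower and 38.2% either over all copies. Past 2-fold stood 175 higher and 214 lower old B1 copies, against 26.3% of all copies tested.

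Copies in 3′ UTRs made up 1532 of the 2174 tested, and 255 were higher and 396 lower in G4 than in WT ESCs. Their share called, 42.5%, was near the 43.7% of all tested 3′ UTR repeats. Of the intronic old B1 copies 82 of 353 were called (23.2%), beside 37.2% of all tested intronic repeats, a difference that was not tested. Copies read in the sense of the host exon and those against it had like shares, 41.4% of 889 and 39.9% of 830, where sense is that of the annotation, since the reads carry no known strand. By name, the share called ran between 30% for PB1D9 and 50.5% for B1F1.

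Copies of the same gene are not independent, and the 1719 tested exonic members lay in 1266 genes, 309 of which held at least 2. Of the 699 exonic old B1 copies called in G4 against WT, 469 had another tested repeat, outside the old B1 names, in the exons of the same gene. In 392 of the 469 that neighbour was itself called: 388 in the same direction only, 1 in the other direction only and 3 in both. For the other 77 no neighbour was called. Among genes with at least 2 called old B1 copies, 106 of 107 moved one way. Of the 82 called intronic copies, 63 had such a neighbour in the same introns and 51 a called one, 49 in the same direction only, 0 in the other only and 2 in both.

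Telomere loss acts at chromosome ends, so position was read as well. Within 1 Mb of an end lay 909 old B1 copies (0.987%), which may include some of the 53 on unplaced scaffolds. Of the 909, 903 lay by a distal end, as did all 29 that were tested. Of the 29, 2 were higher and 6 lower in G4 than in WT ESCs. Their share called was 27.6% with a median of -0.25, while 42.9% of all repeats tested there were called with a median of 0.36. Within 20 Mb, 649 were tested, and 93 were higher and 128 lower (34.1%, against 40.2% of all). On chromosome 6 between 10 and 80 Mb, a stretch picked after the values were seen, 1 of 35 tested was higher and 19 lower. The median there was -0.96 for old B1 and -1.06 for all repeats, 56.4% of which were called.

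**Figure D4:**
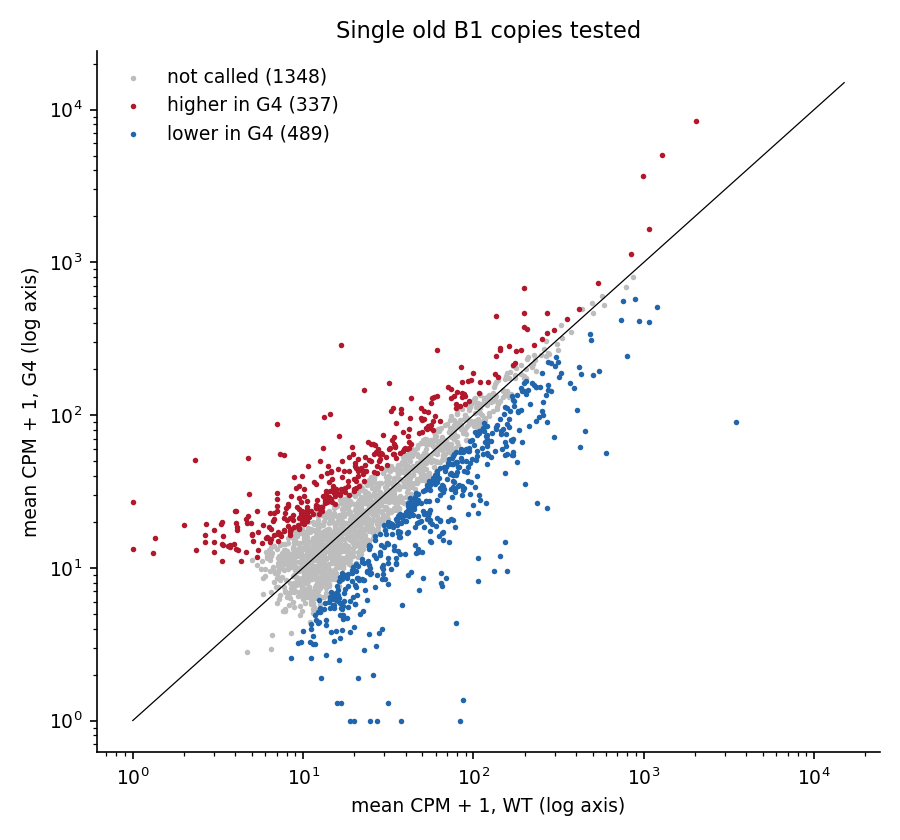
Mean level of each tested old B1 copy in G4 (y axis) and in WT ESCs (x axis), as CPM plus 1 on log axes, coloured by its call, with a line where both are equal. The 337 higher and 489 lower copies lie on both sides of the line, and the Tdgf1 copies have the highest G4 levels.

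The most abundant old B1 copies lay in the 3′ UTR of Tdgf1. The B1F1 copy at chr9:110939796-110939939 had 7454, 9184 and 8428 CPM in G4, 3134, 2996 and 3083 in G1, and 1933, 2072 and 2096 in WT ESCs. The 3 groups did not overlap and G1 stood between the others. Its log2 fold change was 2.04 ± 0.07 for G4 against WT (edgeR adjusted p = 6.18e-18) and 0.60 for G1 against WT (1.03e-06). The PB1D9 copies at chr9:110940083-110940199 and chr9:110940246-110940346 rose by 1.98 ± 0.08 (7.26e-17) and 1.89 (2.01e-16) on the log2 scale. The 1 tested repeat outside old B1 in these exons was higher too, at 33.2 ± 3.6 CPM in G4, 25.3 ± 5.2 in G1 and 12.5 ± 2.0 in WT ESCs (SD, n = 3 each).

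Copies in introns of Nanog, the pluripotency homeobox factor, led the rises in G1 against WT. A B1_Mur1 copy rose by 1.92 on the log2 scale (edgeR adjusted p = 0.0107) and a PB1D9 copy by 1.87 (0.0107). In G4 against WT the same copies stood at 1.04 (0.107) and 0.68 (0.304) and were not called. The 3 tested repeats outside old B1 in Nanog exons were higher in G4 than in WT, with summed means of 3834 ± 381 CPM in G4, 2172 ± 155 in G1 and 1301 ± 95.8 in WT ESCs (SD, n = 3 each). A PB1D9 copy in an intron of Tdgf1 rose by 1.34 (0.0145), and a B1_Mur2 copy in the 3′ UTR of Prr23a3 by 1.22 (0.0112). Among the largest falls in G1 against WT were a B1_Mur3 copy near Scube2, a secreted factor that releases Hedgehog ligands (-1.49, 0.0484), and a PB1D10 copy in the 3′ UTR of Pag1, a membrane adaptor (-1.43, 0.0288).

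The B1F1 copy opposite in strand to the 3′ UTR of Col4a2, a collagen IV chain of basement membranes, carried the most reads among the falling copies named here. At chr8:11448389-11448529 it had 80.2, 86.8 and 99.8 CPM in G4, 1556, 1491 and 1587 in G1, and 3440, 3543 and 3462 in WT ESCs. The groups did not overlap, which the rule for naming copies (below) requires of G4 and WT, and G1 lay between the others. The log2 fold change was -5.28 ± 0.09 for G4 against WT (edgeR adjusted p = 1.1e-23) and -1.17 ± 0.07 for G1 against WT (5.86e-11), and this copy held 11.4% of B1F1 counts.

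In the 3′ UTR of Tcf23, a basic helix-loop-helix factor, a PB1D9 copy at chr5:30976399-30976517 had 0 CPM in all 3 G4 libraries, 34.4, 34.6 and 29.7 in G1, and 76.0, 100.3 and 71.0 in WT ESCs. It was at least 85.3-fold lower in G4 than in WT, against a floor of 3 counts over the group. A PB1D10 copy of the same 3′ UTR, at chr5:30975655-30975749, had 1 count in G4 in all against 254 in WT, a ratio of 0.00374 (95% interval 9.43e-05 to 0.0210, counting error only). Both tested repeats outside old B1 in Tcf23 exons were lower as well, at 2.07 ± 2.02 CPM in G4, 58.9 ± 3.3 in G1 and 158 ± 24 in WT ESCs (SD, n = 3 each).

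A PB1D7 copy in the 3′ UTR of Dkk1, a secreted inhibitor of Wnt signalling, at chr19:30546218-30546341, had 0 CPM in all 3 G4 libraries, 8.35, 8.86 and 8.80 in G1, and 25, 25.1 and 28.8 in WT ESCs. It was at least 27.4-fold lower in G4 than in WT, and G1 fell by 1.59 on the log2 scale against WT (edgeR adjusted p = 0.00763). A B1_Mur2 copy in the 3′ UTR of Slco2a1, a prostaglandin transporter, was at least 19.7-fold lower in G4, and a B1_Mur4 copy in an intron of Adamts9, a secreted metalloprotease, at least 24.6-fold. A cluster of 3 neighbouring copies on chromosome 5, beside Klb, the FGF co-receptor beta-Klotho, and the ribosomal protein gene Rpl9, was lower in G4 than in WT. The B1_Mur2 copy 46 bp from Klb was at least 37.9-fold lower in G4, the B1_Mur3 copy stood at a ratio of 0.0390 (95% interval 0.00786 to 0.119) and the B1F copy at 0.0104 (0.000261 to 0.0596). A PB1D10 copy 319 bp from B4galnt2, a glycosyltransferase, fell by 4.54 ± 0.34 on the log2 scale (3.51e-11).

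A B1F1 copy in the 3′ UTR of Calcoco2, an autophagy receptor, at chr11:96099611-96099732, had 260.5, 293.2 and 301.0 CPM in G4, 25, 27.5 and 27.5 in G1, and 16.7, 19.8 and 10.6 in WT ESCs. G4 stood above the other groups, which the rule for naming copies requires. The G1 libraries lay above the WT libraries, but that change of 0.77 on the log2 scale was not called (edgeR adjusted p = 0.0596). The log2 fold change for G4 against WT was 4.19 ± 0.18 (edgeR adjusted p = 6.55e-16), with values that are not whole. Both tested repeats outside old B1 in Calcoco2 exons were higher too, at 445 ± 40 CPM in G4, 49.3 ± 12.7 in G1 and 29.7 ± 2.3 in WT ESCs (SD, n = 3 each).

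A B1_Mur4 copy in an exon of AC122818.3, a long non-coding RNA gene, at chr17:87464624-87464769, had 47.3, 52.1 and 49.4 CPM in G4, 7.30, 7.09 and 0 in G1, and 2.08, 0 and 1.92 in WT ESCs. The log2 fold change for G4 against WT was 5.08 ± 0.54 (edgeR adjusted p = 3.13e-08), from a WT level of 4 counts in all. A pair of B1_Mur2 copies in the 3′ UTR of Apobec3, a cytidine deaminase that restricts retroviruses, were higher in G4 than in G1. The one at chr15:79907480-79907625 had 248.4, 263.1 and 290.3 CPM in G4, 53.2, 40.8 and 48.4 in G1, and 49.0, 70.0 and 62.4 in WT ESCs, a change of 2.5 for G4 against G1 (8.77e-13). The other changed by 2.63 (2.84e-10). The G1 and WT libraries overlapped at both.

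Other copies among the 10 largest rises in G4 against WT lay in H2-M5, a non-classical MHC class I gene (PB1D7, 2.88 on the log2 scale), Ticrr, a factor of replication initiation (B1_Mur3, 3.07), and introns of Gpx4, which reduces lipid peroxides (B1_Mur1, 2.96), Agtrap (B1_Mur4, 2.94) and Platr14 (PB1D10, 2.96). The H2-M5 copy had 107.7, 99.6 and 92.6 CPM in G4, 31.3, 23.0 and 39.6 in G1, and 9.37, 12.5 and 18.2 in WT ESCs. Another 3 were assigned to Arl14epl (3.81), 2410003I16Rik (3.73) and Gm18637 (2.86). Among the most abundant copies, the PB1D10 copy of Paics, a purine synthesis enzyme, had 1559, 1750 and 1620 CPM in G4, 1036, 931 and 990 in G1, and 1002, 1105 and 1106 in WT ESCs. It rose by 0.62 ± 0.08 on the log2 scale (edgeR adjusted p = 4.91e-07), and a PB1D9 copy in a non-coding exon of Cct6a, a chaperonin subunit, by 0.43 (0.000254).

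**Figure D5:**
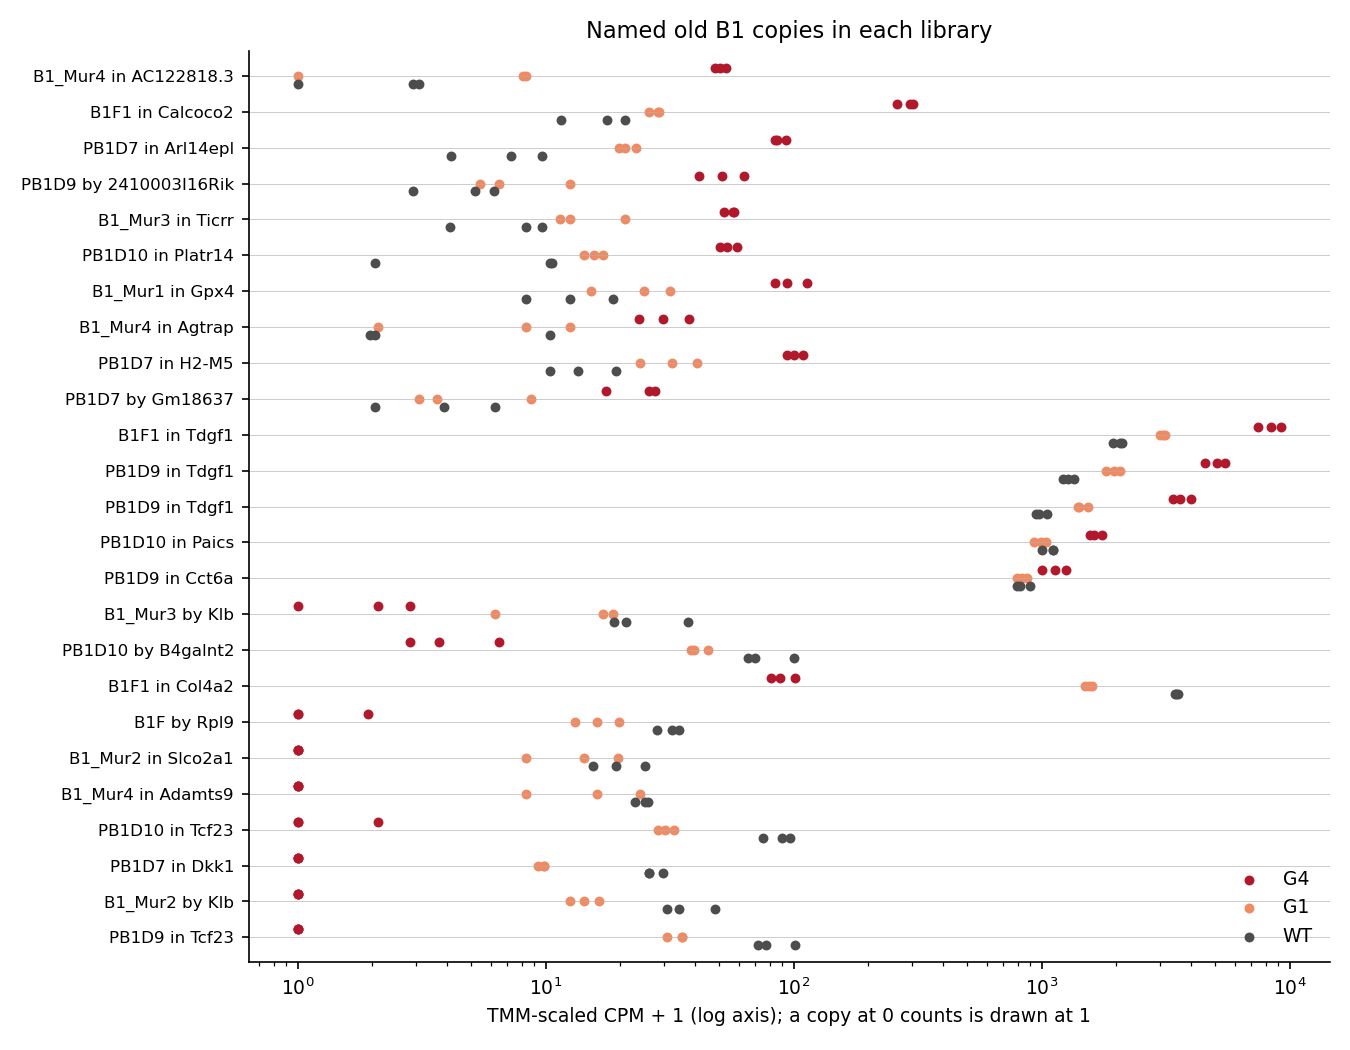
Level in each library (CPM plus 1, log axis; a copy at 0 is drawn at 1) of the copies named for G4 against WT and the most abundant copies, 1 line a copy, with 3 points each for G4, G1 and WT. Copies in Col4a2, Tcf23 and Dkk1 are lowest in G4 and highest in WT, and copies in Tdgf1 and Calcoco2 are highest in G4.

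Marker genes of cell types were read through the repeats in their exons, old B1 copies included. Of 10 ESC genes 5 had such a repeat and 4 could be tested (Nanog, Tdgf1, Tfcp2l1 and Esrrb). All 4 were higher in G4 than in WT, with sums of 22178 to 25908 CPM in G4, 10900 to 11514 in G1 and 6778 to 7230 in WT ESCs. Zfp42 was read too little to test, at 5.77 CPM in G4, 4.4 in G1 and 5.55 in WT ESCs. Pou5f1, Sox2, Klf4, Dppa5a and Utf1 hold no repeat in an exon and were not read. Of 10 primitive endoderm genes, the cell type that lines the inner cell mass, 6 had a repeat and 4 were tested (Gata4, Sox7, Pdgfra and Col4a2). All 4 were lower, at 104 to 127 CPM in G4, 2004 to 2129 in G1 and 4539 to 4586 in WT ESCs. Dab2 was read too little to test, at 0 in G4 and G1 and 2.37 CPM in WT. So was Lamb1, at 0.293 CPM in G4, 0.307 in G1 and 1.7 in WT. Of 10 feeder fibroblast genes 4 had a repeat, and the 2 tested (Col1a1 and Prrx1) were higher. The 4 summed to 127 to 165 CPM in G4, 105 to 125 in G1 and 47.0 to 77.8 in WT ESCs. Dcn was read too little to test, at 0 in G4 and G1 and 0.641 CPM in WT. So was Thy1, at 1.58 CPM in G4, 3.11 in G1 and 0.641 in WT. Feeder cells had been removed before RNA was taken, per the protocol, and whether any were left was not tested. The Tdgf1 and Col4a2 levels include B1F1 and PB1D9 copies described above: 3 of the 4 repeats in Tdgf1 exons and the 1 in Col4a2 are old B1 copies. Within the ESC sums, Tdgf1 alone had means of 16486 CPM in G4, 6686 in G1 and 4336 in WT ESCs. Within the primitive endoderm sums, Col4a2 alone had 3501 CPM in WT ESCs. PB1D9 had the order of the ESC sums, highest in G4 and lowest in WT, and B1F1 did not. PB1D9 and the ESC sums share the Tdgf1 reads, so their like order is in part given. Beyond the values given without the ESC and primitive endoderm exons, the part of these cell types in the results was not tested.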

How the data were processed

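Total RNA had been extracted from 9 ESC samples, and the study's methods call the sequence data paired-end mRNA-seq. The authors had processed the reads with FastQC 0.11.9, STAR 2.5.3a and featureCounts on mm10, per the labels and the study's methods. The deposited table holds estimated counts per repeat copy, many not whole, so reads were shared between features although unique mapping is described. A second deposited table holds the same counts divided by 1 size factor per library (a scaled signal), and was checked but not used in tests. Copy counts were rounded, and those of repeat names and gene contexts summed before rounding. Contexts came from GENCODE M21 on GRCm38. No genome sequence was used, so sequences were read from its transcripts.

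Fits used R 4.3.3 and edgeR 4.0.16 (quasi-likelihood, TMM scaling, filterByExpr, all 3 groups in 1 fit), with p-values adjusted by Benjamini-Hochberg over all copies, names or sums tested. Library depth was 918879 to 1137257 counts, and intervals cover counting error only. The fits were tested on simulated data for G4 against WT. At each level 67, 67 and 66 features were changed 1.5-, 2- and 4-fold, in G4 only. Of the calls there, 10.2% were false among 13278 copies, 1.15% among 853 names and 5.73% among 2171 context sums. In the data 42.6% of copies, 46.5% of names and 39.0% of sums were called, so these false shares need not hold there. A 2-fold change was recovered in 47.8% of changed copies, 89.6% of names and 74.6% of sums, and a 1.5-fold change in 8.96% of copies. A copy that was not called may thus have changed. Replicates differed by more than sampling noise, so all libraries were kept. Copies are named by a rule: the 10 largest changes each way in G4 against WT, 5 in the other comparisons, and the most abundant. Named changes had to be called, with a mean count of at least 10 and no overlap between libraries of the groups compared. That a copy named for a change separates those groups is therefore given by the rule. Zero groups got a floor of 3 counts. The members and lists were chosen with earlier results of these data known. Alternatives covered DESeq2 1.42.0, library totals, filters, a 2-group fit, left-out libraries, whole-valued copies and far copies. Those without the most abundant copy of each name or without marker exons were added after seeing the data. Copies within 5 kb of a gene were called near. Authors' comparison columns were not used.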

Additional observations from a re-analysis of the deposited data

How the results depend on the processing

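Of the 792 alternative values of named copies 766 kept their direction and call, 26 lost the call and 0 reversed. Most of these copies were named because they were called in the same libraries, so keeping the call is in part given by the rule. Of 756 for repeat names, 682 held, 37 lost and 7 gained the call, and 30 reversed. Values in threes run in the order G4 against WT, then G1 against WT, then G4 against G1. Far copies alone gave 2, 0 and 1 names and 2, 0 and 3 copies called. A fold over 2 gave 0 names in each and 524, 42 and 389 copies, the study's fold rule 0 names in each and 438 copies in G4 against G1, and a looser filter 76 copies in G1 against WT. Whole-valued copies or no top copy gave 1 name in G1 against WT, and library totals 6 in G4 against G1. Leaving out each library gave 11 to 12, 0 to 3 and 10 to 12 names, 694 to 895, 85 to 124 and 568 to 743 copies, and 18 to 29 context sums. The log2 ratio of the old B1 sum for G4 against WT was 0.037 with totals, -0.23 whole-valued, -0.026 far, -0.19 without top copies, -0.18 without marker exons and -0.13 to -0.062 leaving out a library. For G1 against WT it was -0.065, 0.019 and -0.077 in whole-valued, far and no-top copies (-0.058 to -0.016 leaving out a library), and for G4 against G1 0.078 with totals, -0.17 whole-valued, -0.12 without top copies and -0.14 without marker exons (-0.096 to -0.015). The causes were not tested, except that far copies leave few reads.

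Reversed values for G4 against WT were, in whole-valued copies, -1.01 for B1F1 and -0.012 for PB1D9, in far copies -0.68 for B1F1, 0.18 for B1F2, 0.070 for B1_Mur1, 0.067 for B1_Mur3, 0.14 for B1_Mur4, 0.11 for PB1D10 and 0.097 for PB1D7, without the top copy -0.84 for B1F1, without marker exons -0.38 for B1F1 and -0.042 for PB1D9, and with totals 0.033 for B1_Mur1. For G1 against WT, far B1F2 stood at 0.11. For G4 against G1 they were -0.58 (whole-valued), -0.49 (far), -0.43 (no top copy) and -0.21 (no marker exons) for B1F1, -0.019, -0.12 and -0.044 (whole-valued, far, no marker exons) for PB1D9, far 0.069 for B1F2, 0.17 for B1_Mur1, 0.063 for B1_Mur4, 0.11 for PB1D10 and 0.13 for PB1D7, and with totals 0.016, 0.034, 0.043 and 0.021 for those last 4 names.

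Same-numbered libraries correlated at -0.0768 to 0.0919, so the numbers pair no samples. With the replicate block 11, 2 and 12 names, 787, 106 and 649 copies and 24 context sums were called. DESeq2 called 11, 2 and 9 names and 618, 88 and 491 copies.

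The depth, a median of 992072 repeat counts a library, leaves most single copies untested, and counts do not tell a transcript started at an element from its host transcript. Read strand is not known.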

Other observations

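Genes that set RNA polymerase III transcription or SINE silencing were read through the repeats in their exons. Of the 10 listed, all had such a repeat and 4 could be tested, and these exons hold 12 old B1 copies. Suv39h1, a histone H3 lysine 9 methyltransferase, had 86.2, 86.2 and 75.3 CPM in G4, 272, 281 and 270 in G1, and 330, 385 and 438 in WT ESCs. It was lower in G4 than in WT by 2.22 on the log2 scale (-2.22 ± 0.12; edgeR adjusted p = 1.85e-22). Gtf3c2, a subunit of transcription factor IIIC, changed by -0.43 ± 0.13 (0.00484). Polr3b, a core subunit of RNA polymerase III, stood at -0.01 ± 0.12 (0.948) and Setdb1, another H3 lysine 9 methyltransferase, at 0.25 ± 0.14 (0.133).

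Of 7 p53 target genes 4 were tested and all 4 were lower in G4 than in WT ESCs, with sums of 1679 to 1840 CPM in G4, 3003 to 3210 in G1 and 3351 to 3555 in WT. Ccng1 changed by -1.24 ± 0.07, Trp53inp1 by -0.93 ± 0.12, Mdm2 by -0.76 ± 0.08 and Cdkn1a by -0.61 ± 0.10. Bbc3, Sesn2 and Phlda3 hold no repeat in an exon and were not read. Both lists rest on a few 3′ UTR repeats a gene.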
